A study of Mus musculus with 8 samples.

Results

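Of 46724 distal regions of open chromatin found in formalin-fixed paraffin-embedded (FFPE) mouse spleen, 6500 were called with reverse crosslinking and not without it. They were chosen from the measured peaks themselves. All peaks of 4 bulk ATAC-seq libraries on chromosomes 1 to 19 were merged wherever they shared at least 1 bp, which gave 58916 regions. A region was kept if both libraries with reverse crosslinking (+RV) had a peak in it and neither library without it (−RV) did, and if it stayed clear of promoters, taken as 1000 bp before and 200 bp after each transcription start site (TSS) of protein-coding genes. These 6500 are called +RV-only distal regions here. They made up 13.9% of all distal regions, and a further 878 regions with the same pattern of calls lay at promoters and are not members.

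Spleens came from 8-week-old C57BL/6J mice, wild type in genotype, with both sexes used by the study. Nuclei isolated from the FFPE blocks were cut and tagged with Tn5 transposase, and the tagmented material was then purified with or without a reverse crosslinking step. The bulk libraries were 2 per condition, which the study's supplement describes as technical replicates. Single-cell libraries were also 2 per condition, but their fragments were deposited as 1 pooled set for −RV and 1 for +RV, so each condition counted as a single sample and no test between them was possible.

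ATAC-seq reads out where Tn5 can insert into DNA, which happens mainly where nucleosomes are absent or displaced. Away from promoters, such places include enhancers, which bind cell-type transcription factors, and sites of CTCF, the zinc-finger protein that anchors chromatin loops and marks domain boundaries. Formaldehyde links proteins to DNA and to each other, and reverse crosslinking by heat and protease breaks these links before the DNA is purified. Spleen is rich in B cells and T cells, with macrophages, erythroid cells, endothelium and stromal cells around them.

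Sequences of 200 bp around the summit of the stronger +RV peak are given for members that carry the results below, as the + strand of mm10 (RefSeq GRCm38). Capitals mark matches, on either strand, to any of 17 motifs searched. Besides CTCF, those found in the printed members are TGANTCA for AP-1, GAGGAAG for PU.1 and TGTGGTT for RUNX factors. GATA factors were searched as the letters AGATAA, E-boxes as CAGCTG or as CAGGTG, and EBF as CCCNNGGG. IRF factors were searched as GAAANNGAA, NF-kB as GGGNNTTCC, the GC box as GGGCGG and TCF/LEF factors as TTCAAAG. A match is a string of letters and not a shown binding site. The CTCF and E-box searches overlap, because the CTCF letters can hold CAGGTG on 1 strand. The first 3 sequences are the members with the best mean rank of −log10 q in both +RV lists.
chr14:78383456-78383655, intergenic, nearest TSS Tnfsf11: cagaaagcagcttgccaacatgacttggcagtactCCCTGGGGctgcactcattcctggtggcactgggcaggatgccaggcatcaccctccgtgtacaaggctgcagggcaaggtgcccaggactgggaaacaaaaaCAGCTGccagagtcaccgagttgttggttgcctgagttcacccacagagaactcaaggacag
chr5:63906568-63906767, intergenic, nearest TSS Rell1: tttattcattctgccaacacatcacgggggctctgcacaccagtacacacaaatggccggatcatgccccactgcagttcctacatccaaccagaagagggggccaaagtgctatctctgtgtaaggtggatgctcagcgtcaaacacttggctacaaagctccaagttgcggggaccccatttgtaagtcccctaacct
chr8:82374516-82374715, intron of Il15: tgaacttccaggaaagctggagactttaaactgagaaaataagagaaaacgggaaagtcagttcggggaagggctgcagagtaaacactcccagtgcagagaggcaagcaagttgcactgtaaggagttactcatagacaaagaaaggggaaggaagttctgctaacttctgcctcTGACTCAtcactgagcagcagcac
The next sequence belongs to the member with most single-cell fragments in both sets.
chr14:50062499-50062698, no coding gene, nearest coding TSS Olfr726: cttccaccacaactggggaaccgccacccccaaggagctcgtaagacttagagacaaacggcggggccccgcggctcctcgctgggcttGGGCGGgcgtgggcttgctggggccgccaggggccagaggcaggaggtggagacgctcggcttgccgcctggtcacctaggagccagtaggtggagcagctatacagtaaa
These 6 are the best-ranked members within 10 kb of marker genes of B cells (Cxcr5), T cells (Cd8b1), macrophages and monocytes (Cd5l), erythroid cells (Tal1), endothelium (Eng) and stroma (Col1a1).
chr9:44538049-44538248, intron of Cxcr5: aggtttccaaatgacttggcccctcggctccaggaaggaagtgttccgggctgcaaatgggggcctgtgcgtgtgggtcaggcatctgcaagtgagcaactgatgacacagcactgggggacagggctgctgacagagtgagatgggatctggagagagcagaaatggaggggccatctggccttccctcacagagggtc
chr6:71316598-71316797, intron of Smyd1, upstream of Cd8b1: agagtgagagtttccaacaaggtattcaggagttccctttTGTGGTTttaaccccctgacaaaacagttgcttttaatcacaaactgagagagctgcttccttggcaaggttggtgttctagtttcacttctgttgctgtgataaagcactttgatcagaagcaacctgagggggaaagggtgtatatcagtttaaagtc
chr3:87369265-87369464, intron of Cd5l: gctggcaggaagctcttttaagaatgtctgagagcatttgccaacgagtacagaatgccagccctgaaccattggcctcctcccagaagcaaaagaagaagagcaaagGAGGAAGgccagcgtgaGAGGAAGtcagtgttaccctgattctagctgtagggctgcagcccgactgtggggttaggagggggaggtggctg
chr4:115052632-115052831, upstream of Tal1: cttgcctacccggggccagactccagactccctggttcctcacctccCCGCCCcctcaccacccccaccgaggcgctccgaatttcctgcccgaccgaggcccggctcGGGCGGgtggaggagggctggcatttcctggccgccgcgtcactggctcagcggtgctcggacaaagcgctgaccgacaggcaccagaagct
chr2:32661742-32661941, intron of Eng: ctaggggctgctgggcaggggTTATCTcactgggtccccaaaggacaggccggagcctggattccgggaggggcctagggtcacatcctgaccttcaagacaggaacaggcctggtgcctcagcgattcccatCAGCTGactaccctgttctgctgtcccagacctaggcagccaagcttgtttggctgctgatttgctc
chr11:94937003-94937202, intron of Col1a1: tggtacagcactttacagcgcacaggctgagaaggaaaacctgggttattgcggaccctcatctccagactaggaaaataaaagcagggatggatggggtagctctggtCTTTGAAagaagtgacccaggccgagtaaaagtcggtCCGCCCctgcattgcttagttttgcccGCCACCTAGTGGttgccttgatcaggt
The last 3 are the best-ranked members with a CTCF match in the central 100 bp. They were added after the motif shares had been seen.
chr11:116586905-116587104, intron of Aanat: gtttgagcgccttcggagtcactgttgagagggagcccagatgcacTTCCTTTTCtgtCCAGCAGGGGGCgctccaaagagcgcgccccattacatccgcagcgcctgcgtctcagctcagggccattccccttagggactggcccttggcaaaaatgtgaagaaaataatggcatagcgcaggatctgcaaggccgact
chr3:122638766-122638965, intergenic, nearest TSS Fnbp1l: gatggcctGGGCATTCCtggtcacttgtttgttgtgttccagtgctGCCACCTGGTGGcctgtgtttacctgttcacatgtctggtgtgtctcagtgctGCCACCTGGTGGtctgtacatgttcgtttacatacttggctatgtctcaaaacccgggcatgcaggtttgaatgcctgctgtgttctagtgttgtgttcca
chr11:100983466-100983665, intergenic, nearest TSS Cavin1: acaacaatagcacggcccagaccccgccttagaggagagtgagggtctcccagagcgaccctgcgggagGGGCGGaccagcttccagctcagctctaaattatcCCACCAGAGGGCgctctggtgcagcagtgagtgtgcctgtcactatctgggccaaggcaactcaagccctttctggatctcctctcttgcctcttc

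The distal regions near spleen markers gave a partial check of the tissue. All 16 B cell genes had at least 1 distal region in their domain, meaning the gene body and 10 kb on each side, and 44 of the 102 regions in those domains were called in all 4 libraries. Of 20 T cell genes, all 20 had one as well. So had 12 of 12 dendritic cell, 15 of 16 erythroid, 16 of 18 endothelial and 7 of 8 plasma cell genes. For macrophages and monocytes it was 14 of 18 genes and for stroma 12 of 16. Lower shares were found for NK cells and neutrophils (7 of 11 each) and megakaryocytes (5 of 10). Of genes of other tissues, 4 of 10 hepatocyte, 5 of 9 pancreatic acinar, 6 of 10 skeletal muscle and 7 of 12 neuron genes had one, against 11508 of all 20696 coding genes. The −RV lists held 32288 and 32736 peaks and the +RV lists 47755 and 47864, and the sequencing depth behind the bulk lists is unknown because they hold peaks and no read totals. The −RV single-cell set had 1592372 nuclear fragments from 2406 barcodes and the +RV set 13703580 from 18620, and 2 barcodes occurred in both.

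Since a call depends on list length, the number of +RV-only distal regions moved with the rule. When each list was cut to its 32288 best-ranked peaks, 1546 distal regions had the pattern, and 1521 of the 6500, or 23.4%, were among them. With one +RV library left out the rule asks for a single +RV peak, and the count was 14295 without +RV replicate 1 and 14143 without +RV replicate 2. It was 9079 without −RV replicate 1 and 9482 without −RV replicate 2. The opposite pattern, both −RV libraries and no +RV library, was found in 240 distal regions. A further 13427 were called in all 4 libraries, 8424 in a mixture of both conditions, 14773 in 1 +RV library alone and 3360 in 1 −RV library alone.

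Peaks in +RV-only distal regions were weak ones. These values chose the members and are a description only. The median −log10 q, the caller's score for a peak against its own library's background, was 7.11 in +RV 1 and 7.19 in +RV 2. In regions called in all 4 libraries it was 17.2 in both +RV libraries. The median fold over local background was 3.88 and 3.92 in the members, against 4.83 and 4.83 in the regions of all 4 libraries. No member stood among the 10000 best-ranked peaks of either +RV list. Member regions were also short, with a median of 392 bp against 628 bp.

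**Figure D1:**
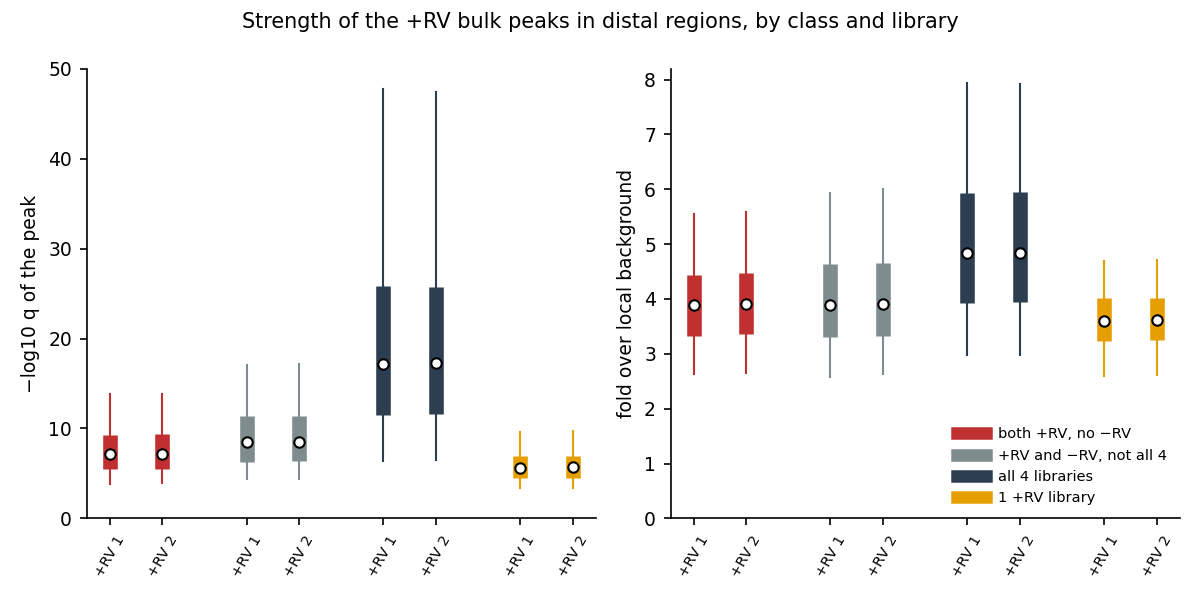
Strength of the +RV bulk peaks in 4 classes of distal regions, for each +RV library (x axis): left, −log10 q; right, fold over local background. Circles are medians, thick bars the middle 50% and thin lines the 5th to 95th percentile of regions. The 2 +RV libraries look alike. In −log10 q the members (red, medians 7.11 and 7.19) lie between regions of 1 +RV library (5.56 and 5.70) and mixed regions (8.46 and 8.48). In fold they lie next to the mixed regions (3.88 and 3.92 against 3.89 and 3.92). Both measures are below those of regions called in all 4.

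In a member the peaks of both +RV libraries lay close together, which the rule largely sets in advance. It asks for peaks of both in the same merged region, and 98.8% of members were made of 2 peaks. The distances are therefore a description only. The summits were a median of 66 bp apart, and 4519 of 6500 members, or 69.5%, had them within 100 bp. Across members, which are not independent replicates, Pearson's r of log2 −log10 q between both libraries was 0.28, while across regions of all 4 libraries it was 0.82. The members spanned a narrower range of scores than those regions, and the fold over background differed between both libraries by a median of 0.19 on the log2 scale in members and 0.15 in those regions. At the lower edge, the weaker +RV peak of a member had a −log10 q of 2.35 at least and 5.83 in the median. Just outside the rule, the single −RV peak that kept 5528 regions out had a median of 6.49 and a lowest value of 2.41.

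The strongest members were spread over the genome with no common gene class. The best-ranked, chr14:78383263-78383813, lay 75.5 kb from the TSS of Tnfsf11, which encodes the cytokine RANKL. Its −log10 q was 19.4 in +RV 1 and 28.3 in +RV 2, its fold 7.02 and 8.76, and the nearest −RV peak was 48.2 kb away. The second, chr5:63906453-63906903 near Rell1, had 18.6 and 23.5. The third lay in an intron of Il15, the cytokine that maintains NK cells and memory T cells, at chr8:82374429-82374873, with 22.9 and 18.5. The other 7 of the best 10 lay near Nabp1, Txnrd1, Lingo1 and Map4 or in introns of Nrf1, Fam149a and Zfp462, with −log10 q from 15.96 to 22.2. Of these 10, 2 had a −RV peak within 1000 bp, those in Nrf1 (0.303 kb) and Fam149a (0.498 kb).

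Introns held 3260 members (50.2%), intergenic DNA 2877 (44.3%) and exons 363 (5.58%). Exons held 3.67% of the regions called in all 4 libraries and 4.04% of all distal regions. The median distance from a member to the nearest coding TSS was 25.8 kb, and 968 members lay over 100 kb from any. Regions of all 4 libraries had 23.7 kb, and those of 1 −RV library alone 55.0 kb. Windows at TSSs of noncoding genes, which the rule did not exclude, held 212 members (3.26%). By chromosome, members were between 12.6% (chromosome 14) and 15.7% (chromosome 9) of the distal regions, so no single chromosome carried them.

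Many members had a −RV peak in the neighbourhood. The median distance to the nearest −RV peak was 9.88 kb. It was under 1000 bp for 721 members (11.1%), with a closest gap of 8 bp, and over 10 kb for 3228 (49.7%).

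The single-cell fragments, which the rule did not use, showed signal at these regions in both conditions. In the −RV set, 11396 fragments fell in the 6500 regions, or 0.716% (95% interval 0.703 to 0.729). In the +RV set, 108111 fragments did, or 0.789% (0.784 to 0.794). Intervals throughout are exact, 2-sided, and cover counting error only, since fragments of 1 pooled set are not independent samples. At least 1 −RV fragment was found in 4836 members (74.4%), and at the −RV depth the +RV set would be expected to reach 5169 (79.5%). When the same regions were moved 2000 bp to either side, 32.0% and 31.8% held a −RV fragment. A region without one could have up to 1.88 CPM (fragments scaled to nuclear fragments), taking 3 counts as the limit that a count of 0 allows rather than an interval.

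The −RV set was as sharply raised at the summits as the +RV set. Fragment density in the 300 bp around the summit was 3.64 times that in flanks 1000 to 2000 bp away in the −RV set (3.54 to 3.73) and 3.65 times in the +RV set (3.62 to 3.69). Regions called in all 4 libraries had 5.87 (5.80 to 5.95) and 6.22 (6.19 to 6.24). Regions called in a mixture of both conditions had 3.66 (3.59 to 3.74) and 3.67 (3.64 to 3.69), so the members' values were not particular to them. Regions called in 1 +RV library had 2.58 (2.53 to 2.63) and 2.72 (2.70 to 2.74). For the 240 regions called in both −RV libraries alone the values were 2.64 (2.34 to 2.98) and 2.32 (2.23 to 2.42).

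**Figure D2:**
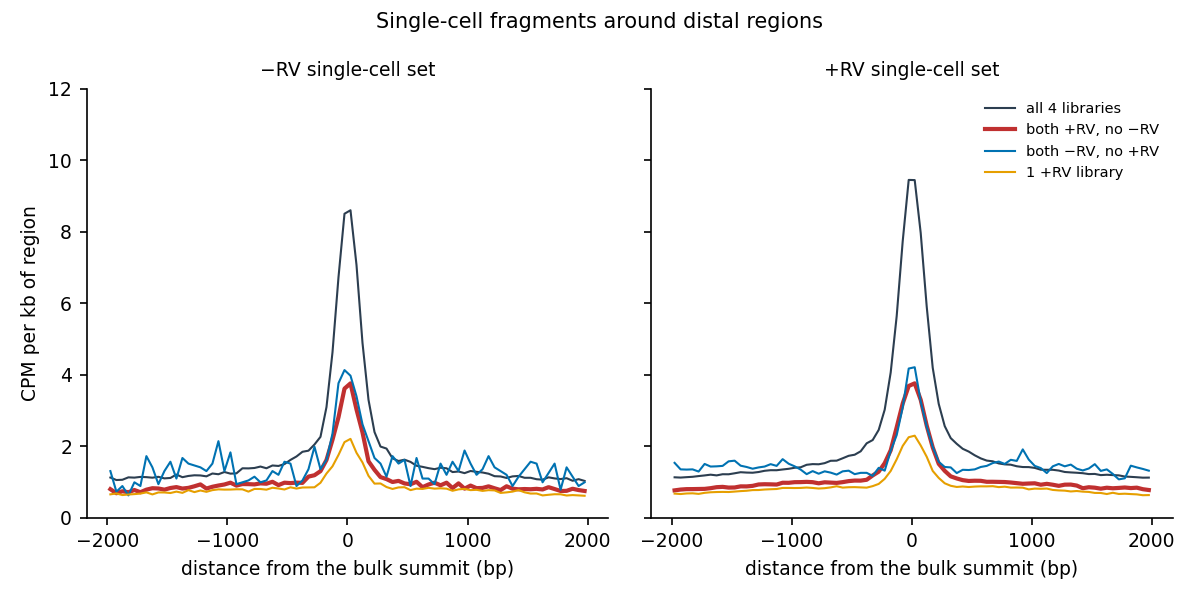
Single-cell fragment midpoints around the summits of distal regions, in CPM per kb of region, in 50-bp bins (x axis, distance from the bulk summit in bp), for the −RV set (left) and the +RV set (right). Members (red) peak at 3.76 CPM per kb in both sets.

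This −RV signal was not confined to members beside a −RV peak. For the 3228 members over 10 kb from any −RV peak, the summit stood 5.19 times above the flanks in the −RV set (4.98 to 5.41) and 5.38 times in the +RV set (5.31 to 5.45). For the 721 members under 1000 bp from one, whose flanks hold those peaks, it stood 1.68 times (1.57 to 1.80) and 1.82 times (1.78 to 1.86) above. By position, the −RV value was 3.99 in intergenic members, 3.52 in intronic and 2.64 in exonic ones, and the +RV values of 3.95, 3.60 and 2.63 followed the same order.

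The share of fragments in members was a little larger with reverse crosslinking, by a ratio of 1.10 (1.08 to 1.12). Regions called in all 4 libraries had a larger ratio, 1.19 (1.18 to 1.20), and all distal regions together 1.14 (1.14 to 1.15). Promoter regions called only in +RV had 1.21 (1.15 to 1.26). Regions called in a mixture of both conditions had 1.09 (1.07 to 1.10), close to the members. In regions of 1 +RV library the ratio was 1.08 (1.06 to 1.11), and in those of both −RV libraries alone 0.983 (0.890 to 1.09). Over all peak strengths the members thus had a lower single-cell ratio than the regions of all 4 libraries. At like strength the order varied between bins. At a mean −log10 q of 5 to 10 over both +RV libraries, which 4813 members had, it was 1.11 (1.08 to 1.13) in members and 1.07 (1.04 to 1.10) in regions of all 4 libraries. At 10 to 15 it was 1.09 (1.04 to 1.14) and 1.14 (1.12 to 1.17), and at 15 to 20 it was 1.20 (1.05 to 1.38) and 1.18 (1.15 to 1.20). At 2 to 5 it was 1.04 (0.970 to 1.12) and 1.05 (0.875 to 1.26). At 20 or more, with 4 members, it was 1.17 (0.592 to 2.65) and 1.22 (1.21 to 1.23). The order turned between these bins, and the intervals overlap in each of them. Members close to a −RV peak had 1.25 (1.19 to 1.32) and those over 10 kb away 1.08 (1.05 to 1.12).

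The ratio depended on fragment length. Fragments of the +RV set were longer, with a median of 76 bp against 62 bp, and 19.7% of its nuclear fragments were over 150 bp, about the length wrapped by a nucleosome, against 2.04% in −RV. In members, fragments over 150 bp were 24.7% of +RV (24.5 to 25.0) and 3.62% of −RV (3.29 to 3.98). When shares were taken within a length class, members held 1.29 times as large a share of +RV as of −RV fragments up to 50 bp (1.24 to 1.35). For lengths over 50 and up to 100 bp, where the direction turned, the ratio was 0.980 (0.956 to 1.01). It was 0.833 (0.791 to 0.879) over 100 and up to 150 bp, and 0.780 (0.708 to 0.862) over 150 bp. Regions of all 4 libraries had 1.35, 1.01, 0.832 and 0.789 in the same classes. Fragment lengths piled up at 75 bp, a length to which the authors trimmed reads, and the part of trimming in these ratios was not tested.

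**Figure D3:**
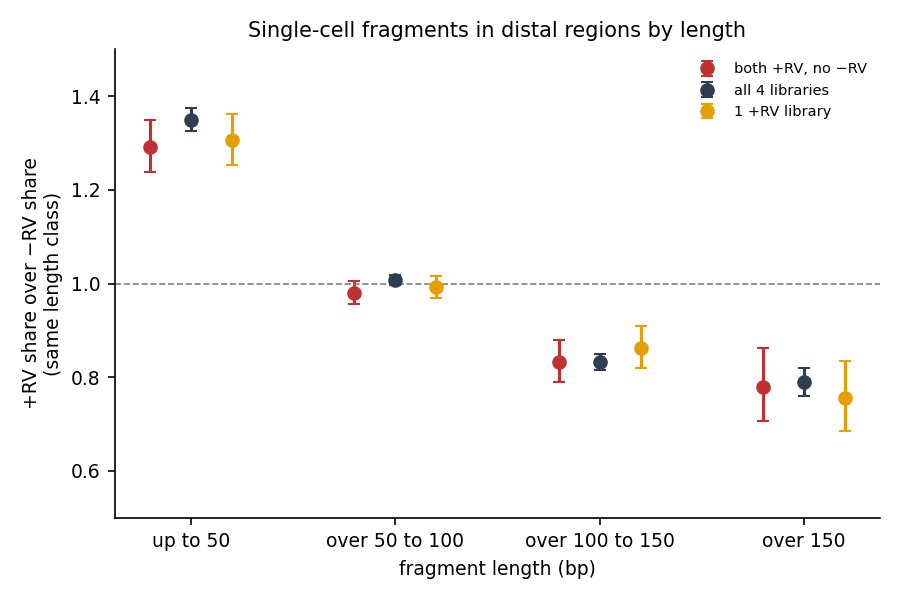
Share of +RV single-cell fragments over share of −RV fragments that fell in a class of distal regions (y axis), taken within 4 classes of fragment length (x axis). Points are ratios and bars exact 95% intervals for counting error; the dashed line marks equal shares. Members (red) go from 1.29 in the shortest class to 0.780 in the longest.

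The fragments were spread over many nuclei. Of −RV barcodes 2326 of 2406 (96.7%) had at least 1 fragment in a member, with a mean of 4.74 per barcode, and of +RV barcodes 18287 of 18620 (98.2%), with a mean of 5.81. The 10% of barcodes with most of them held 25.6% in −RV and 25.9% in +RV.

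One member stood out in the single-cell data. chr14:50061816-50062865, in a cluster of olfactory receptor genes with Olfr726 as the nearest coding TSS at 22.1 kb, held 18 −RV and 262 +RV fragments, which is 11.3 and 19.1 CPM (ratio 1.69, 1.05 to 2.90). It was 722 kb from the nearest −RV peak, and its 300-bp window had a GC content of 65.3%. Second in +RV was chr2:170154929-170155750 near Zfp217, with 13 and 126 fragments. An intron of Alad, which encodes an enzyme of heme synthesis, followed with 14 and 94, an exon of Tsc22d2 with 13 and 80, and an exon of Myc, the growth-promoting transcription factor, with 9 and 78. Unlike the first, these lay near a −RV peak, at 0.738 kb (Zfp217), 2.655 kb (Alad), 0.69 kb (Tsc22d2) and 0.238 kb (Myc). The Myc summit was 0.573 kb and the Tsc22d2 summit 1.772 kb from the nearest coding TSS. The other members with most −RV fragments lay in introns of 3110082I17Rik (15 −RV and 63 +RV) and Syngr1 (14 and 53), where the ratio of the scaled counts was 0.488 (0.275 to 0.923) and 0.440 (0.241 to 0.859). These members were picked for their counts, so their ratios are a description.

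Members were richer in G and C than other distal regions. The rule did not use sequence, but the peak calls it used may depend on it, so this too is given without a test. In the 300 bp around the summit, median GC content was 50.7% in members, 49.7% in regions of all 4 libraries, 49.0% in those of 1 +RV library, 40.7% in those of 1 −RV library and 39.7% in those of both −RV libraries alone. With all distal regions cut into 5 equal groups by GC content, members were 6.67% of the lowest group, then 11.6%, 14.5% and 17.2%, and 19.7% of the highest. The printed members range from the Smyd1 intron upstream of Cd8b1, at 42.5% GC, to the region upstream of Tal1, at 70%.

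The difference in GC content was larger when peaks of like strength were compared. At a mean −log10 q of 5 to 10 over both +RV libraries, 4813 members had a median of 50.7% and 2124 regions of all 4 libraries 46.7%. At 10 to 15 it was 52.3% in 972 members and 48.3% in 3277 regions, and at 15 to 20 it was 53.0% in 95 members and 49.7% in 2672 regions. Regions called in both +RV libraries and 1 −RV library lay between these values in each of the 3 bins. At 20 or more only 4 members were left, with a median of 48.8% against 51.7% in 5299 regions.

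**Figure D4:**
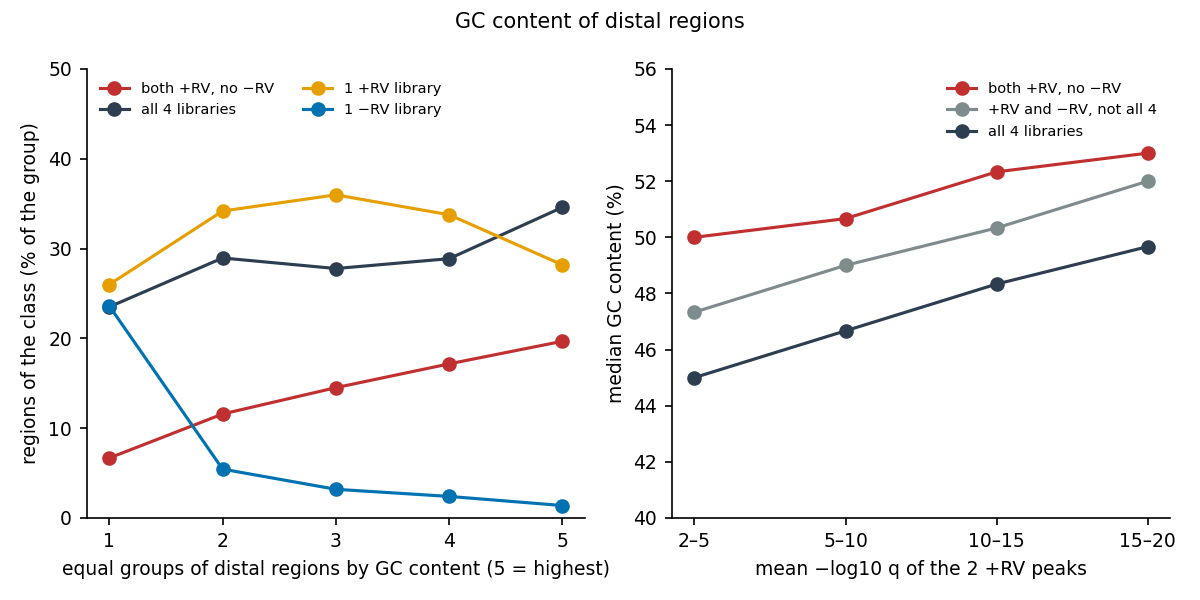
Left, share of each of 5 equal groups of distal regions by GC content (x axis) that belongs to a class (y axis, %). Right, median GC content (%) of 3 classes in bins of the mean −log10 q of both +RV peaks. Members (red) rise from 6.67% of the lowest group to 19.7% of the highest, and have the highest median in each of the 4 bins drawn. The bin of 20 or more, with 4 members, is left out.

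In the single-cell sets the ratio did not climb steadily with GC content in members. From the lowest to the highest of the 5 groups it was 1.08 (1.01 to 1.16), 1.04 (0.992 to 1.10), 1.09 (1.04 to 1.14), 1.14 (1.09 to 1.18) and 1.12 (1.08 to 1.16). Over all distal regions it was 1.04 in the lowest group and between 1.14 and 1.17 in the others. A median of 7.67% of the window was masked as repeat in the reference for both members and regions of all 4 libraries. In 320 members (4.92%) over 50% was masked, against 2.95% of the regions of all 4 libraries and 14.7% of those of 1 +RV library.

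A CTCF match was more frequent in members than in regions of all 4 libraries, and nearly as frequent in regions called in a mixture of both conditions. It was found in 404 members (6.22%), in 5.73% of the mixed regions, 3.72% of regions of all 4 libraries, 4.12% of those of 1 +RV library and 4.51% of all distal regions. Of the 2109 distal regions with a match, 19.2% were members, against 13.7% of those without. At −log10 q of 5 to 10, where most members lie, the share was 5.86% in members, 5.60% in regions of both +RV and 1 −RV library and 4.85% in regions of all 4 libraries. At 10 to 15 these shares were 8.44%, 6.55% and 3.97%, and at 15 to 20, with 95 members, 10.5%, 6.60% and 3.97%. At 2 to 5 members had 4.87% and the regions with 1 −RV library 8.77%. Within the central 100 bp the share was 3.31% in members, 3.24% in the mixed regions and 1.90% in regions of all 4 libraries. Members with a match had a median GC content of 51.0%, close to the 50.7% of those without.

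Members with a CTCF match had a sharper single-cell signal than those without, and so had members with GATA letters. The 404 stood 4.78 times above their flanks in the −RV set (4.28 to 5.33) and 4.79 times in the +RV set (4.62 to 4.96), while the 6096 members without a match had 3.58 (3.49 to 3.68) and 3.60 (3.57 to 3.63). The +RV over −RV ratio was 1.14 (1.05 to 1.23) with and 1.10 (1.08 to 1.12) without, which are not separated. The sharper signal was not particular to members. Regions of all 4 libraries had 7.06 with and 5.84 without a CTCF match in −RV, and 7.52 and 6.18 in +RV. The 947 members with GATA letters stood 4.88 (4.59 to 5.19) and 4.64 times (4.54 to 4.74) above their flanks, and the 5553 without 3.43 (3.33 to 3.52) and 3.50 (3.47 to 3.54). Their ratios were 0.974 (0.931 to 1.02) with and 1.13 (1.11 to 1.16) without these letters. Regions of all 4 libraries had 6.04 with and 5.84 without GATA letters in −RV, and 6.16 and 6.22 in +RV. Members with AP-1 letters (4.04 against 3.59 in −RV) and with the E-box CAGCTG (3.98 against 3.53) were sharper too. Some other motifs went the other way, such as the GC box (2.96 against 3.77). Of members under 1000 bp from a −RV peak 2.08% had a CTCF match, and of those over 10 kb away 7.06%. In the printed region near Fnbp1l the CTCF letters occur at 2 places.

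Most of the other motifs were less frequent in members than in regions of all 4 libraries, but not all of these were less frequent than in all distal regions. The octamer ATTTGCAT, bound by the OCT factors of B cells and others, was found in 1.60% against 3.57%, and in 2.63% of all distal regions. TGTGGTT, bound by RUNX factors, was found in 10.6% against 14.6%, with 11.4% over all. CCGGAAG, a core of ETS factors, was found in 3.57% against 5.16%, with 3.45% over all. For PU.1, the ETS factor of myeloid and B cells, it was 23.6% against 27.6%, with 22.8% over all, and for IRF letters 10.5% against 13.3%, with 11.9% over all. The GC box of Sp1 and related factors had 12.8% against 15.0%, with 10.9% over all. AP-1 (11.5% and 11.5%), EBF (11.0% and 11.3%) and CACCC letters (CCACACCC, 4.54% and 5.13%) differed less. Other motifs higher in members than in the regions of all 4 libraries were the E-box CAGCTG (23.7% against 21.9%) and GATA letters (14.6% against 13.8%). The remaining 5, the E-box CAGGTG, NF-kB, TCF/LEF, NRF1 (GCGCATGCG) and C/EBP (TTGCNNAA), were lower in members by 1.11 percentage points at most. At a like −log10 q of 5 to 10, RUNX letters stood at 10.8% against 15.1% and PU.1 letters at 23.7% against 25.5%. The order turned there for ETS letters (3.49% against 2.59%) and GATA letters (14.5% against 16.7%).

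**Figure D5:**
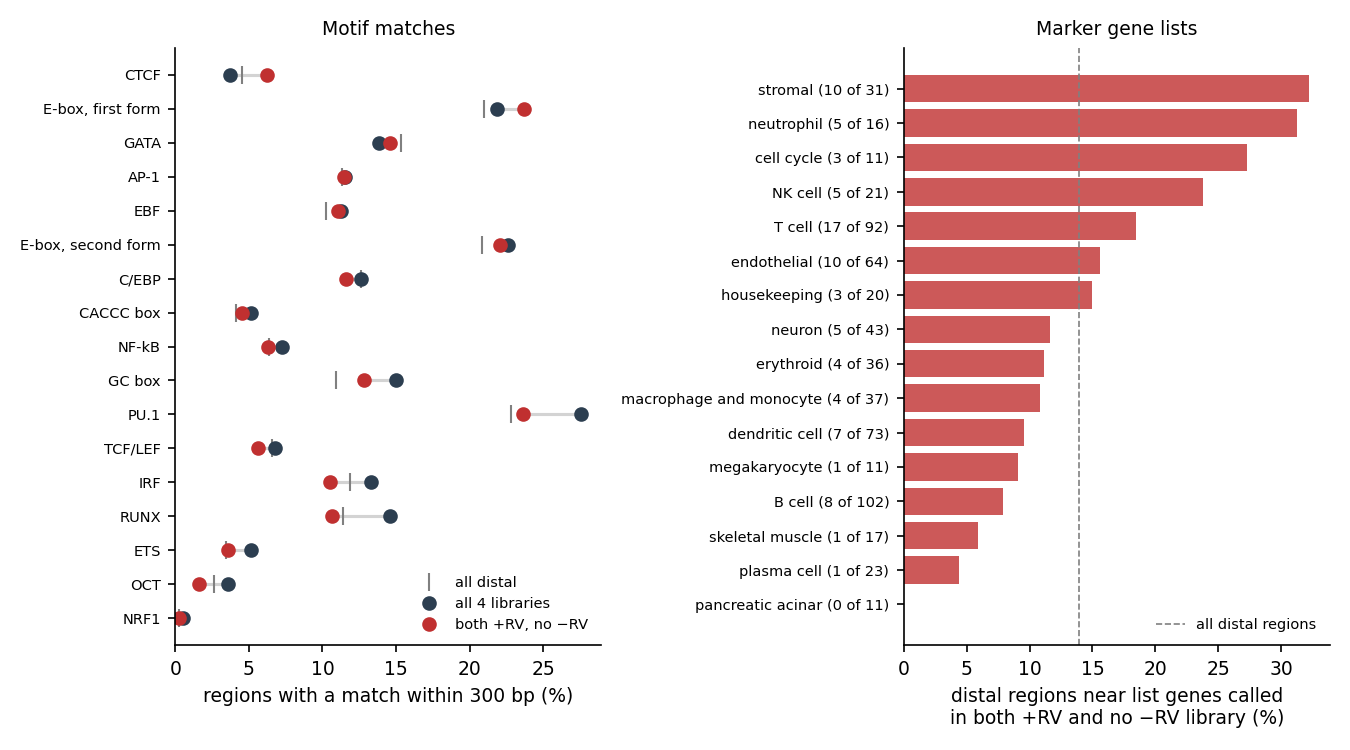
Left, share of 300-bp windows with a match to each of 17 motifs (x axis, %) in members (red), regions of all 4 libraries (dark) and all distal regions (grey tick); the first and second E-box forms are those spelled in the text with CTG and GTG as the last letters. Right, share of the distal regions near genes of a marker list that are members (x axis, %), with counts in brackets, for lists with at least 10 such regions. The dashed line is the 13.9% of all distal regions.

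By marker list, the share of distal regions that were members ran from 0 to 32.3%, the latter near stromal genes. These counts rest on the calls that chose the members, so they carry no test and are read against the 13.9% of all distal regions. The intervals treat each region as independent, cover counting error only and are no test either. Near B cell genes 8 of 102 distal regions were members (7.84%, exact 95% interval 3.45 to 14.9), 3 of them in Ebf1 and 1 each near Pax5, Blk, Cxcr5, Pou2af1 and Ralgps2. The other B cell genes had none, among them Bank1 (16 distal regions), Spib (5), Cd79b (5), Ms4a1 (3) and Cd79a (2). The Cxcr5 member, chr9:44537800-44538330 in an intron of this chemokine receptor of follicular B cells, had −log10 q of 6.99 and 8.68 and held 5 −RV and 33 +RV fragments.

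Near T cell genes 17 of 92 were members (18.5%, 11.1 to 27.9), at 11 of 20 genes. Cd6 had 3 of its 5 distal regions as members and Lef1, a transcription factor of the Wnt pathway in T cells, 3 of 10. Bcl11b, a factor of T cell commitment, and the adaptor Skap1 had 2 each. Cd247, Cd2, Cd4, Cd8b1, Lck and Zap70 were among those with 1 each. Cd3d, Cd3e, Cd3g, Cd5, Cd8a, Tcf7, Themis, Cd28 and Lat had none. The best-ranked T cell member, chr6:71316449-71317015 upstream of the CD8 beta chain gene Cd8b1, had −log10 q of 9.73 and 13.8. NK cell genes had 5 members of 21 (23.8%), with 2 near Eomes and 1 each at Tbx21, Klre1 and Klrk1, where Eomes and Tbx21 are the T-box factors of this lineage.

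Stromal genes had 10 members of 31 distal regions (32.3%, 16.7 to 51.4), and 4 were called in all 4 libraries. Col1a1, a chain of collagen I, had 2 of its 3 distal regions as members, while Col1a2, Acta2, Myh11, Nr2f2 and Tcf21 were among those with 1 each. The Col1a1 region, chr11:94936820-94937407, lay 0.879 kb past the TSS with −log10 q of 10.8 and 8.64, and held 4 −RV and 30 +RV fragments. It is the only one of the 6 printed list members with a CTCF match. With the gene body alone and no 10 kb beside it, the stromal share was 23.5%.

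Endothelial genes had 10 of 64 (15.6%), with 2 at Eng, an endothelial TGF-beta co-receptor, and 1 each at Pecam1, Kdr, Flt4, Tek, Egfl7, Plvap, Esam and Sox18. The Eng region chr2:32661465-32662128 was the best-ranked of all endothelial members (−log10 q of 17.2 and 13.8), with 6 −RV and 43 +RV fragments. The Flt4 region, chr11:49613381-49613842 in the gene of the lymphatic VEGF receptor, was the only distal region in that domain (8.55 and 16.8).

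Shares near genes of myeloid and erythroid cells varied from list to list. Macrophage and monocyte genes had 4 of 37 (10.8%), among them the only distal region at Vcam1 and the only one at Mertk. Dendritic cell genes had 7 of 73 (9.59%), with 2 near Siglech, the marker of plasmacytoid dendritic cells, and 1 each near Xcr1, Clec9a and Irf8. Neutrophil genes had 5 of 16 (31.3%, 11.0 to 58.7), with 2 each near Elane and Cebpe and 1 near Retnlg; none lay inside a gene body. Erythroid genes had 4 of 36 (11.1%), 1 each at Tal1, Gfi1b, Ank1 and Kel. The region upstream of Tal1, chr4:115052609-115053044, had −log10 q of 7.77 and 8.78, and held 3 −RV and 40 +RV fragments. Megakaryocyte genes had 1 of 11 and plasma cell genes 1 of 23.

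Among lists of other tissues, neuron genes had 5 of 43 (11.6%), skeletal muscle genes 1 of 17 and pancreatic acinar genes 0 of 11, while hepatocyte genes had 0 of 4. Cell cycle genes had 3 of 11 (27.3%): in an intron of Mcm5, near Aurkb, and near Mcm2 but in an intron of Tpra1. Housekeeping genes had 3 of 20 (15.0%), Sdha and Ywhaz among them. With 4 to 102 regions a list, 1 call moves the smaller shares by several points.

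Members were widely scattered among genes. Of 20696 protein-coding genes on these chromosomes, 3981 (19.2%) had a member in their domain, and 202 had 3 or more in the gene body. The largest number, 30, fell in Gm20388, a gene model 4435 kb long with 191 distal regions. Foxp1, a forkhead factor needed by B cells and T cells, had 11 members of 55 distal regions. Fgfr2 had 9 of 65 in a model of 2961 kb, and Zmiz1 9 of 27. Man1a had 8 of 14, Ano6 8 of 19, 2010111I01Rik 8 of 20, Nav2 8 of 22 and Zbtb20 8 of 26, and Lpp had 7 of 40. Long genes lead this order because they can hold more regions.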

How the data were processed

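Each bulk library came as 1 list of MACS2 layout on mm10. In it the authors deposited a score (the −log10 q times 10, as a whole number), a ratio (fold of the summit over local background), and the −log10 of p and of q, each set within its own library. MACS2 and blacklist removal are named by the study's methods, while Bowtie2 2.4, SAMtools 1.15, Picard 1.119 and SEACR 1.3 stand in the submitters' notes without roles. The single-cell files of the authors hold other values: position and barcode of each fragment, from reads trimmed in length and aligned with BWA, for barcodes of at least 500 fragments. Their labels also name a selection of barcodes on the fraction of reads around TSSs, a measure that the study's methods describe.

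Peaks were merged and classed with Python 3.11.15, numpy 2.4.6, pandas 2.3.3 and scipy 1.17.1, against 41438 TSSs of 21827 protein-coding genes (GENCODE vM21 basic). Fragments were counted by midpoint and scaled to those on chromosomes 1 to 19, X and Y (CPM). Ratio intervals are conditional binomial and share intervals binomial, at 95%. Scripts were tested on simulated data. No test was run: calls chose the members, and each single-cell condition is 1 pooled set. Members, 17 gene lists and 17 motifs were chosen with earlier results of these data known. Named were the 10 best-ranked members, the best-ranked members of up to 3 genes a list, the 10 genes with most members and the 5 members with most fragments in each set. Gata1, Alas2, Hprt and Pgk1 lie on X and were left out. A few list genes are counted but not reported here by name.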

Additional observations from a re-analysis of the deposited data

How the results depend on the processing

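No paired analysis was possible because no test was run and the single-cell replicates are pooled. Values are given as single-cell ratio, −RV enrichment, +RV enrichment, GC content or CTCF share of the members. With peaks of −log10 q of at least 5 the enrichments were 3.90 (−RV) and 3.94 (+RV). With peaks within 150 bp merged the +RV enrichment was 3.73, and with a promoter window of 2000 bp up to 500 bp down the enrichments were 3.77 and 3.80. With 32288 peaks from every list there were 1546 regions, with enrichments of 4.72 and 4.60, a GC content of 52% and a CTCF share of 7.89%. With barcodes of at least 1000 fragments the ratio was 1.07 and the enrichments 3.90 and 3.71. With fragments over 50 and up to 100 bp the ratio turned to 0.980 and the +RV enrichment was 3.44. With both fragment ends counted the enrichments were 3.53 and 3.49. In windows of 100 bp GC content was 52% and the CTCF share 3.31%. Leaving out 1 library gave 9079 to 14295 regions, a ratio of 1.09 to 1.12, enrichments of 3.01 to 3.82 (−RV) and 3.12 to 3.86 (+RV), a GC content of 49.7% to 50.7% and a CTCF share of 4.87% to 6.19%. The cause of these moves was not tested. Some settings keep fewer peaks or change the rule, while those on barcodes, fragments and the 100-bp window keep the same members. The ratio of the members was below that of the regions of all 4 libraries in these settings. At like −log10 q the order varied between bins. It was 1.11 against 1.07 at 5 to 10, and 1.09 against 1.14 at 10 to 15. The −RV depth, with a median of 1 fragment a region, limits what can be said of single members.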
